A study of Mus musculus with 12 samples.

Results

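The proteasome and the enzymes that attach and remove ubiquitin were followed in mouse testis RNA on 12 two-colour cDNA arrays. The genes were chosen by name alone: platform symbols starting with Psma, Psmb, Psmc, Psmd, Psme or Ube2, Uba or Usp followed by a digit, and Uchl3 and Uchl5. This gave 92 of 9930 named genes, carried by 133 probes; 66 genes had 1 probe and 26 had more, up to 4. No probe was named for Uchl3 or Uchl5. Testing needed 3 or more measured arrays out of 4 in each of the comparisons, which 86 of the 92 genes had. The other 6, Psma7, Psmb7, Psmd4, Psmd14, Psme2 and Ube2j1, gave too few values and were not tested. The names also took in Psmc3ip, a partner of meiotic recombinases, and Psme3ip1, a protein that binds an activator. Neither is a proteasome subunit. Both are described apart but are included in all counts and medians of the 92 and the 86 genes.

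The arrays compared males of 3 kinds, all on a Castaneus background: wildtype, Wobbler (wr/wr in the design text), and Wobbler with a modifier (wr/mod in the design text). Each RNA was a pool from 3 animals, and ages were not given. The Wobbler mutation lies in Vps54, which helps to tether vesicles returning to the Golgi; mutant mice lose motor neurons, and the males form round-headed sperm and do not breed. Wobbler over wildtype, modifier over wildtype and modifier over Wobbler were each measured on 4 arrays, with the dyes exchanged on 2 of them. Nothing in the labels said that the arrays of a comparison came from separate pools, so p-values measured only how far arrays differed, and such differences may be technical. The modifier comparisons share modifier RNA, and Wobbler and wildtype RNA were likewise each used in 2 comparisons, so values of the comparisons are set side by side only. A reference made from control animals is mentioned in the labelling protocol, whereas the channels are labelled with the compared genotypes.

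Proteins are marked for breakdown by ubiquitin in a relay. An E1 enzyme activates ubiquitin, an E2 conjugating enzyme carries it, and a ligase places it on the target; deubiquitinases such as the ubiquitin-specific proteases (USPs) take it off again. Marked proteins are unfolded by the ATPases of the 19S particle and cut inside the 20S core, a barrel with outer rings of alpha subunits and inner rings of beta subunits. In testis this machinery is used heavily when spermatids exchange histones for protamines and discard cytoplasm, and germ cells use their own variants of several parts.

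Values are log2 ratios of the first-named over the second genotype, and all fold changes are on that scale. The direction was taken from the array titles, with Cy5 assumed to stand over Cy3, and could not be checked. Read as Cy5 over Cy3, with dye-exchanged arrays turned, the loop of 3 comparisons closed with r = 0.178 across 14975 probes. Read as channel 1 over channel 2, r was 0.0104. Probes are not independent replicates. Turning the sign of all arrays together leaves this r unchanged. It therefore bears on turning the dye-exchanged arrays and not on which dye stands on top. Ratios carry no level, so the tissue label could not be checked by the presence of testis markers. Arrays of 1 comparison correlated weakly across probes, with r between -0.0904 and 0.177. Array SDs lay between 0.617 and 1.61, the widest being replicate 2 of Wobbler over wildtype. In tissue RNA, fewer cells of a type and less RNA per cell cannot be told apart.

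Psma6, an alpha subunit of the 20S core, was lower with the modifier against both other genotypes, and Usp53 was lower in Wobbler over wildtype. These were the only genes of the 86 that passed, each comparison giving 1 lower and 0 higher gene at a Benjamini-Hochberg adjusted p under 0.05 in limma. Over all 14729 features the share lower at this threshold was 0.183% for Wobbler over wildtype, 0.699% for modifier over wildtype (0.0339% higher, 0.733% either way) and 0.299% for modifier over Wobbler, and 1 of 86 is 1.16%. At an unadjusted p under 0.05, modifier over wildtype gave 9 lower genes and 1 higher gene, 10.5% and 1.16% of those tested, against 5.22% and 2.11% of all features. The 1 higher gene was 1 of the 2 taken in by name only, Psmc3ip and Psme3ip1. The split of 9 and 1 depended on how the arrays were fitted. With 2 genotype coefficients for the whole loop it was 8 lower and 7 higher, and with array weights 15 lower and 5 higher. Wobbler over wildtype gave 12 higher and 2 lower, 14% and 2.33%, against 7.22% and 8.47% of all features. Modifier over Wobbler gave 5 in each direction, 5.81%, against 7.03% higher and 4.47% lower. Of the 5 higher genes there, 1 was again a gene taken in by name only. The median ratio of the 86 genes was 0.15, -0.08 and 0.01 in these comparisons (Wobbler over wildtype, modifier over wildtype, modifier over Wobbler), beside -0.01, 0.01 and 0.08 for all features. Fitted ratios were above 0 for 26 of 86 genes in modifier over wildtype (52.5% of all features), and of 85 with 4 values 5 were positive (8.69% of all features) and 19 negative (22.4%, beside 10.4%) on all arrays. For modifier over Wobbler 44 were above and 42 below 0, against 61.6% and 38.4% of all features.

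The medians were not alike on the arrays of a comparison. In Wobbler over wildtype the median of the 86 genes was 0.30 and 0.36 on replicates 1 and 2 but -0.20 and -0.08 on replicates 3 and 4, where the dyes were exchanged. All features moved the same way, with 0.12, 0.04, -0.23 and -0.10. On replicate 2 of this comparison 22 of 85 measured genes lay above 2, against 0 or 1 on the other arrays of the comparison; of all spots on that array 13.9% lay above 2. In modifier over wildtype the medians were -0.02, -0.01, -0.30 and -0.08, against 0.16, 0.13, -0.19 and -0.10 for all features. The genes therefore stood below all features on replicates 1 to 3 and not on replicate 4 of that comparison.

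**Figure D1:**
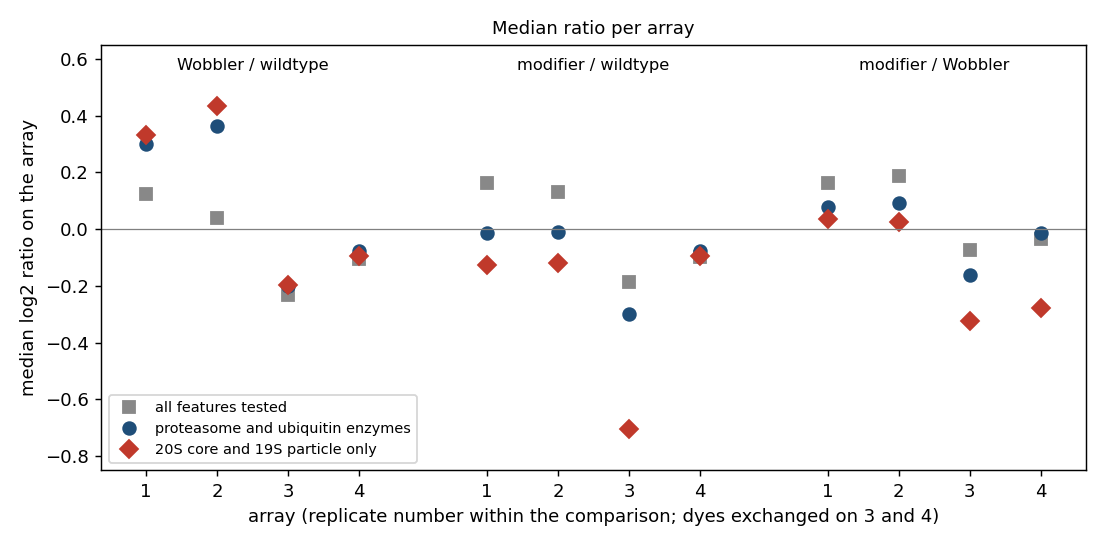
Median log2 ratio on each of the 12 arrays (x axis: replicate number within each comparison) for all features tested, for the 86 proteasome and ubiquitin enzyme genes, and for the 24 tested genes of the 20S core and 19S particle. The diamonds lie lowest on replicate 3 of modifier over wildtype, at -0.70, where all features lay at -0.19; in Wobbler over wildtype all 3 sets change sign between replicates 1 and 2 and the dye-exchanged replicates 3 and 4.

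The alpha rings form the gate through which substrates enter the core. Psma6 had log2 ratios of -0.74, -0.78, -1.14 and -1.18 on replicates 1 to 4 of modifier over wildtype. All 4 arrays were negative, with the dye-exchanged pair the lower. The fitted ratio was -0.96 ± 0.10 (SE, n = 4), or 1.94-fold lower, with an adjusted p of 0.0022. All SEs given came from the joint fit to the 12 arrays, not from the 4 arrays of a comparison alone. The n counts the arrays of that comparison. Against Wobbler its values were -0.39, -0.32, -1.11 and -1.12, again all negative, and the fitted ratio of -0.74 ± 0.10 (SE, n = 4), or 1.67-fold, had an adjusted p of 0.0168. In Wobbler over wildtype Psma6 lay at 0.60, 0.38, -0.28 and -0.32, so that the sign followed the dyes, and the fitted ratio was 0.09 ± 0.10 (SE, n = 4). The small SE rested on the dye term: without it the adjusted p was 0.10 against wildtype and 0.250 against Wobbler. With 1 array of modifier over Wobbler left out, whichever it was, the adjusted p in that comparison lay between 0.0687 and 0.115; in modifier over wildtype the call held without any 1 array of the 12, with an adjusted p of at most 0.0374.

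**Figure D2:**
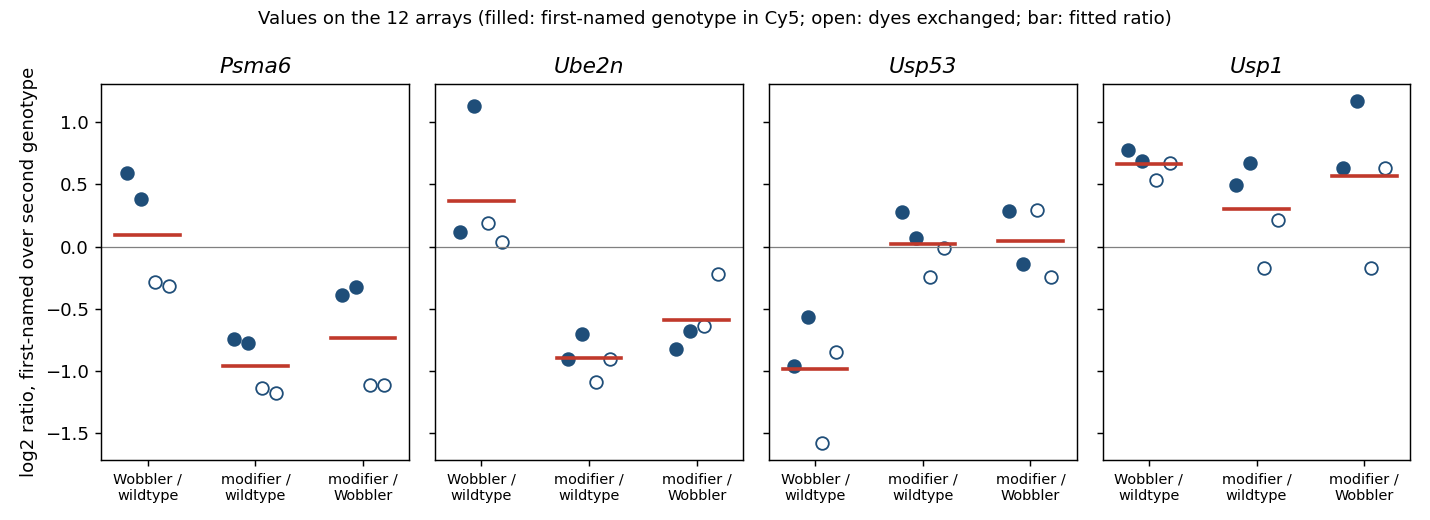
Log2 ratios of Psma6, Ube2n, Usp53 and Usp1 on the 12 arrays, by comparison; filled points have the first-named genotype in Cy5, open points have the dyes exchanged, and the bar is the fitted ratio. Psma6 and Ube2n lie below 0 on all 8 arrays with modifier RNA, Usp53 lies below 0 on the 4 arrays of Wobbler over wildtype, and Usp1 lies between 0.54 and 0.78 there.

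The other alpha genes had ratios on the same side in modifier over wildtype without passing. Psma1 was at -0.37 (values -0.15, -0.22, -0.95 and -0.16) and Psma5 at -0.46 (-0.06, -0.42, -0.96 and -0.41), with adjusted p of 0.489 and 0.439. Psma2 and Psma4 were at -0.28 and -0.24. Replicate 3 was the lowest array for Psma1, Psma2, Psma4 and Psma5. In modifier over Wobbler the 4 genes had -0.33, -0.06, -0.13 and 0.02 (Psma1, Psma5, Psma2, Psma4), and in Wobbler over wildtype 0.06, 0.32, 0.99 and 0.07. The 0.99 of Psma2 came from 4.35 on replicate 2, its other values being 0.23, -0.35 and -0.30.

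The beta rings hold the cutting sites. Psmb6 and Psmb5 are catalytic subunits, and Psmb4 is a structural one. Psmb6 had -0.20, -0.30, -0.76 and -0.26 in modifier over wildtype, all negative, and a fitted ratio of -0.38 ± 0.12 (SE, n = 4) that did not pass (adjusted p 0.280); its 2 probes gave -0.23 and -0.53. It passed in that comparison with arrays scaled to equal spread (-0.50, adjusted p 0.0356) and with array weights (-0.37, adjusted p 0.0303). Psmb5 was at -0.21 and Psmb4 at -0.23 there. Psmb1 and Psmb3 were at -0.43 and -0.51 with wide spreads (SE 0.54 and 0.68), and Psmb2 was the beta gene above 0, at 0.26. Psmb6 in modifier over Wobbler was at -0.22, Psmb5 at -0.08 and Psmb4 at -0.08, and in Wobbler over wildtype they were at -0.11, -0.19 and 0.19.

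Sequences before the start sites are shown for the alpha and beta genes that had the smallest p of their rings in modifier over wildtype. They come from RefSeq on GRCm38.p6, which held promoters for 75 of the 92 genes, and cover the 250 bases before each listed start; Psma6 has 2 listed starts. Capitals mark matches on either strand to the CCAAT box (CCAAT) and to the core of the antioxidant response element (TGACNNNGC), the site of the factors Nfe2l1 and Nfe2l2 that are known to drive proteasome genes.
Psma6 upstream start (chr12:55383972-55384221, plus strand): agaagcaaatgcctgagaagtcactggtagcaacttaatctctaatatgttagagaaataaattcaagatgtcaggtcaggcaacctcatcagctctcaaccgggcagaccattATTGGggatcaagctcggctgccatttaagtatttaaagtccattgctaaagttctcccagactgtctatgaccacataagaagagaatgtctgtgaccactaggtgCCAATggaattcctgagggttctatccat
Psma6 downstream start (chr12:55398575-55398824, plus strand): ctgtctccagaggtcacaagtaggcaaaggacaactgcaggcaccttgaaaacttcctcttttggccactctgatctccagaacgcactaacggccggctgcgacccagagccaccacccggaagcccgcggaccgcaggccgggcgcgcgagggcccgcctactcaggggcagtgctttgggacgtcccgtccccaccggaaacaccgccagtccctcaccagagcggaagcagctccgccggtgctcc
Psma1 (chr7:114276117-114276366, minus strand): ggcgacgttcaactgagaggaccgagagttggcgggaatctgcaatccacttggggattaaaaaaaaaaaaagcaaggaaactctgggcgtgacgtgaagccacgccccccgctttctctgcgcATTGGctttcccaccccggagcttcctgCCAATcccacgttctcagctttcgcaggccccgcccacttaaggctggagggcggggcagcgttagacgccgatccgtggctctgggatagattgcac
Psma5 (chr3:108256676-108256925, plus strand): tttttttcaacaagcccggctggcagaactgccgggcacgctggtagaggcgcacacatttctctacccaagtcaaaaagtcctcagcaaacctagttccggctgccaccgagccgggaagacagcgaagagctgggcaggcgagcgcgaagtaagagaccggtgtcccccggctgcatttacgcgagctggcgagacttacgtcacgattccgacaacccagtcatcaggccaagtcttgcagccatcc
Psmb6 (chr11:70525107-70525356, plus strand): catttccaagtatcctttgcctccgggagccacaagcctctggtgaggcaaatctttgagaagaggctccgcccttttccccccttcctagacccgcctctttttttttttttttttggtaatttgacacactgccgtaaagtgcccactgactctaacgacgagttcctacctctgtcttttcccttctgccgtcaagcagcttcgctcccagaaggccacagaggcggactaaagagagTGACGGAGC

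Psma6 held the CCAAT letters before its upstream start and neither motif before its downstream start. Psma1 held the CCAAT letters, Psmb6 the antioxidant response core, and Psma5 neither. The antioxidant response core was found in 4 of 25 promoters of 20S and 19S genes (16%; Psmb5, Psmb6, Psmc6 and Psmd9), beside 10.2% of all 32851 promoters of this length. CCAAT was found in 9 of 25 (36%), beside 33.8% of all. The cAMP response element (TGACGTCA), read by the spermatid factor Crem, was found in 0 of 25, beside 1.55% of all. The fixed letters of the antioxidant response core and the cAMP response element conflict at every offset, so their matches cannot overlap in any promoter. These shares are near those of all promoters, and a match is a description of letters, not a site.

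The 19S particle binds, deubiquitinates and unfolds substrates. Of its ATPases, Psmc2 had -0.40, -0.25, -0.72 and -0.21 in modifier over wildtype, negative on all 4 arrays, with a fitted ratio of -0.39 ± 0.15 (SE, n = 4; adjusted p 0.471). Psmc4, Psmc5 and Psmc6 were at -0.22, -0.05 and -0.22, and Psmc3 was at 0.02. Of the non-ATPase genes, Psmd13 had -0.33, -0.32, -0.69 and -0.39 there and a fitted ratio of -0.43 ± 0.18 (SE, n = 4; adjusted p 0.577); it passed with arrays scaled to equal spread (-0.58, adjusted p 0.0443) and with array weights (-0.44, adjusted p 0.0181). Psmd11, Psmd6, Psmd7 and Psmd2 were between -0.23 and 0.0025. Psmd5, Psmd9 and Psmd10 are counted here by name but help to assemble the particle; they were at -0.60, -0.75 and -1.0 with SEs of 0.76 to 0.87.

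In Wobbler over wildtype the 19S genes varied most. Psmd11 was at 0.76 ± 0.28 (SE, n = 4) and Psmd13 at 0.43 ± 0.18 (SE, n = 4), and neither passed (adjusted p 0.256 and 0.290). Both were highest on replicate 2, at 2.48 and 1.45, and lay between -0.14 and 0.59 on the other arrays. Psmc3 was at 3.11 on replicate 2 and below 0 on the others, and Psmd9 at -5.95 on replicate 2. In modifier over Wobbler Psmc6 was at 1.23 ± 0.46 (SE, n = 4; adjusted p 0.348), from 2.46 and 2.55 on replicates 2 and 4 against -0.47 and 0.37 on the others.

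**Figure D3:**
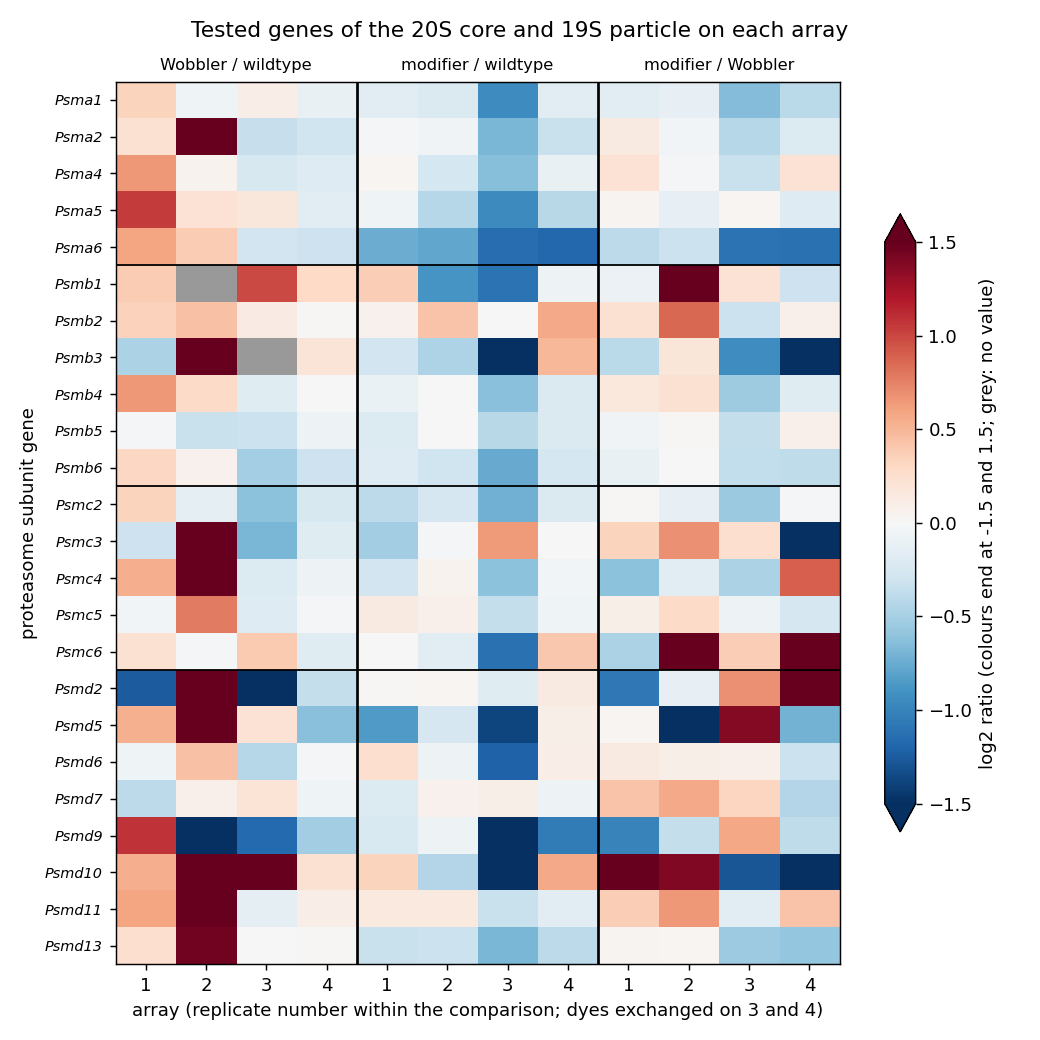
Log2 ratios of the 24 tested genes of the 20S core and 19S particle (rows) on the 12 arrays (columns), with colours ending at -1.5 and 1.5 and missing values in grey. The column of replicate 3 of modifier over wildtype is blue for nearly all genes, with a median of -0.70, while on replicate 2 of Wobbler over wildtype several cells, such as Psma2 at 4.35, lie past the end of the colours.

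As a set chosen by name, 21 of the 24 tested genes of the core and the 19S particle had a fitted ratio below 0 in modifier over wildtype, beside 47.5% of all features. Their median was -0.26, beside 0.01 for all features. Of the 24, 1 passed, 6 were lower at an unadjusted p under 0.05 (25.0%, beside 5.22%), and 9 were negative on all 4 arrays (37.5%, beside 10.4% of 14460 features with 4 values). On replicates 1 to 4 of this comparison the median of the 24 was -0.13, -0.12, -0.70 and -0.10. All features lay at 0.16, 0.13, -0.19 and -0.10. The 24 genes thus stood below all features on replicates 1 to 3, most on replicate 3, and level with them on replicate 4. Without each array of this comparison in turn, 20, 21, 20 and 23 genes were below 0, and the median lay between -0.46 and -0.20. With 2 genotype coefficients for the whole loop, 15 of 24 were below 0 (44.2% of all features), the median was -0.13, and 5 were lower and 1 higher at an unadjusted p under 0.05. The number at an unadjusted p under 0.05 was 4, 2, 2 and 8 without replicates 1 to 4. Read as channel 1 over channel 2, 3 of 24 were below 0, beside 18.97% of all features. The median of the 24 was then 0.135, beside 0.148 for all features.

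The same 24 genes had medians of -0.08 in modifier over Wobbler and 0.16 in Wobbler over wildtype, beside 0.08 and -0.01 for all features. Against Wobbler 15 were below 0 (62.5%, beside 38.4% of all features). Of the 24, 3 were negative on all 4 arrays there (12.5%, beside 6.13%), and 1 passed. In Wobbler over wildtype 17 were above 0, beside 49.2% of all features. Of 22 with 4 values, 2 were positive on all 4 arrays (9.09%, beside 6.03%), and 0 passed in limma. At an unadjusted p under 0.05, 2 of the 24 were higher (8.33%, beside 7.22%), a share near that of all features.

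Markers of germ cells moved in the same comparisons. Of 9 late spermatid markers, among them the protamines, 6 passed as lower in modifier over wildtype, 5 in modifier over Wobbler and 0 in Wobbler over wildtype, where 1 was higher and 1 lower at an unadjusted p under 0.05. All 9 were negative on all 4 arrays and lower at an unadjusted p under 0.05 in both modifier comparisons. The mean ratio of the 9 lay between -1.22 and -0.97 on the arrays of modifier over wildtype, between -0.90 and -0.68 in modifier over Wobbler, and between -0.28 and 0.28 in Wobbler over wildtype. Of 3 tested meiotic markers, 2 passed as lower against wildtype and all 3 were lower at an unadjusted p under 0.05 (array means -1.09 to -0.70). Of 4 Leydig markers 1 passed there and 3 were lower at an unadjusted p under 0.05 (-1.19 to -0.75). Against Wobbler 0 meiotic markers passed and 2 were lower at an unadjusted p under 0.05 (-0.79 to -0.34), and 1 and 2 Leydig markers (-1.25 to -0.29). In modifier over wildtype, of 3 spermatogonial and 5 Sertoli markers 0 passed in limma, with 1 Sertoli marker higher and 2 lower at an unadjusted p under 0.05. In Wobbler over wildtype 2 of the 3 spermatogonial markers were higher at that p (7.22% of all features), and 0 Sertoli markers in either direction. Against Wobbler 1 spermatogonial and 2 Sertoli markers were higher at that p and 0 lower. Of these markers 0 passed in either comparison. Their part in the ratios of Psma6 and the other proteasome genes was not tested.

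The inducible beta subunits replace the catalytic ones in immune cells, and Psmb11 does so in the thymus. None of the 4 passed in any comparison in limma; 1, Psmb11 in modifier over Wobbler, lay at an unadjusted p under 0.05. Psmb8 was at 0.27, Psmb9 at 0.20 and Psmb10 at 0.65 in modifier over wildtype, and Psmb11 at -0.19. Psmb8 had 0.41, 0.50, 0.03 and 0.12 there, positive on all 4 arrays, and -0.44 in Wobbler over wildtype. Of 5 tested macrophage and antigen presentation markers 1, Tyrobp, was lower in modifier over wildtype, and the mean of the 5 lay between -0.46 and 0.21 on its arrays. In modifier over Wobbler all 5 were below 0 (38.4% of all features), 2 of them at an unadjusted p under 0.05, and 0 passed. Wobbler over wildtype gave 3 above and 2 below 0, and 0 passed.

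Of the activators that can cap the core, Psme4 (PA200) is the one linked to histone removal in spermatids. It was at -0.16 ± 0.11 (SE, n = 4) in modifier over wildtype, 0.13 over Wobbler and -0.004 in Wobbler over wildtype, none of which passed. In Wobbler over wildtype its values were 0.24, 0.23, -0.25 and -0.24, their sign following the dyes. Psme1 was at -0.09, 0.19 and -0.0028, and Psme3 at -0.08, -0.46 and -0.06 in the same order.

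The activating enzymes on the array were Uba6, which activates ubiquitin, and Uba7, which activates the ubiquitin-like protein Isg15. Uba7 was at 0.35 in Wobbler over wildtype, -0.05 with the modifier over wildtype and 0.16 over Wobbler, and did not pass. Uba6 had no usable precision, with SEs of 1.22 to 1.43 and single arrays at 6.51 and 4.93.

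Among the 20 tested E2 enzymes, Ube2n had the lowest fitted ratio in modifier over wildtype, though it was at 0.10 when read as channel 1 over channel 2. Ube2n makes ubiquitin chains of a kind that acts in DNA repair and signalling and not mainly in breakdown. Its values were -0.91, -0.70, -1.09 and -0.90 in modifier over wildtype. Against Wobbler they were -0.82, -0.68, -0.64 and -0.22, and Wobbler over wildtype gave 0.12, 1.14, 0.19 and 0.03. It was negative on all 8 arrays with modifier RNA and positive on the 4 without. The fitted ratio in modifier over wildtype was -0.90 ± 0.18 (SE, n = 4), or 1.87-fold, and just missed the threshold (adjusted p 0.0637). It passed in that comparison under 4 of 24 alternatives: without replicate 2 of Wobbler over wildtype (adjusted p 0.00872), with array weights (0.00045), with arrays scaled to equal spread (0.00174), and over features measured on all 12 arrays (0.0476). Its ratio in modifier over Wobbler was -0.59 ± 0.18 (SE, n = 4; adjusted p 0.243).

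Ube2b and its near-identical partner Ube2a ubiquitinate histones, and loss of Ube2b makes male mice infertile with abnormal sperm heads. Ube2b was at 0.46 ± 0.13 (SE, n = 4; adjusted p 0.160) in Wobbler over wildtype. Its values there were 1.02 and 0.87 on replicates 1 and 2 and 0.01 and -0.06 on the dye-exchanged replicates. In this average of its probes only 1 dye orientation showed the difference. The 3 probes of Ube2b gave 0.47, 0.38 and 0.53 in that comparison. Only the probe at 0.38 was positive on all 4 arrays, at 0.83, 0.33, 0.17 and 0.20. In modifier over wildtype the 3 probes gave -0.53, -0.09 and 0.42, and the gene was at -0.07. Ube2a was at -0.35 ± 0.13 (SE, n = 4; adjusted p 0.518) in modifier over wildtype, with values of -0.34, -0.10, -0.70 and -0.26, and at -0.20 and -0.05 in modifier over Wobbler and Wobbler over wildtype. As the transcripts are alike, cDNA probes of Ube2a and Ube2b may share signal.

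Of the 20 tested E2 genes, 18 were below 0 in modifier over wildtype (90%, beside 47.5% of all features). Their median was -0.20, beside 0.01 for all features, and 0 passed in limma. Of the 20, 2, Ube2n and Ube2a, were lower at an unadjusted p under 0.05 (10%, beside 5.22%). Of the 20, 5 were negative on all 4 arrays (25.0%, beside 10.4%). Without each array of the comparison in turn 16 to 18 were below 0, beside 45.2% to 51.9% of all features. With 2 genotype coefficients for the whole loop 12 of 20 were, beside 44.2%, with a median of -0.06, beside 0.03. The 2 genes above 0 were Ube2d2a at 0.11 and Ube2h at 0.0081, chosen after their values were seen. In modifier over Wobbler 13 of 20 were below 0 (38.4% of all features), with a median of -0.12, beside 0.08. In Wobbler over wildtype 7 of 20 were below 0 (50.8% of all features), with a median of 0.17, beside -0.01. Ube2w, which can attach ubiquitin to the first residue of proteins, was at 1.23 in Wobbler over wildtype, from 3.39 on replicate 2 and 0.31 to 0.82 on the others. Ube2d1 was at 1.41 there, from 5.87 on replicate 2. Ube2c, the E2 of the anaphase-promoting complex, was at -1.31 in modifier over Wobbler, from -4.10 on replicate 1 and -0.56 to -0.29 on the others.

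The USPs were the largest class, with 31 tested genes, and Usp53 was the one that passed. Usp53 is a USP family member found at tight junctions and needed for hearing. Its values in Wobbler over wildtype were -0.96, -0.56, -1.58 and -0.85, negative on all 4 arrays, and its fitted ratio was -0.99 ± 0.16 (SE, n = 4), or 1.98-fold lower (adjusted p 0.0367). In modifier over wildtype it had 0.28, 0.07, -0.25 and -0.01, and in modifier over Wobbler 0.29, -0.14, 0.29 and -0.24, on both sides of 0, with fitted ratios of 0.02 and 0.05. Its 2 probes differed in Wobbler over wildtype, at -1.46 and -0.52. The first gave -2.06, 0.07, -2.36 and -1.48 and the second 0.14, -1.19, -0.79 and -0.22, so neither was negative on all 4 arrays. With all 4 arrays the call was made, and it was lost without any 1 of replicates 1 to 4 of this comparison (adjusted p 0.0575 to 0.145), and it held under 6 of 24 alternatives.

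Usp1, a deubiquitinase of the Fanconi anaemia repair pathway whose loss makes male mice infertile, was even across the arrays of Wobbler over wildtype. There its values were 0.78, 0.68, 0.54 and 0.67, all positive, and the fitted ratio was 0.67 ± 0.16 (SE, n = 4), or 1.59-fold. The SD of these 4 values was 0.0976; read as channel 1 over channel 2 the ratio was 0.06. It did not pass (adjusted p 0.125), nor did it under any of the 24 alternatives, the lowest adjusted p being 0.0975. In modifier over Wobbler it had 0.63, 1.17, -0.18 and 0.63 (fitted 0.57 ± 0.16, SE, n = 4; adjusted p 0.203), and in modifier over wildtype 0.50, 0.67, -0.18 and 0.21 (fitted 0.30). It was thus positive on 10 of 12 arrays, with replicate 3 of both modifier comparisons as the exceptions.

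Usp12, whose activity depends on the partner Wdr48, was at -0.45 ± 0.11 (SE, n = 4; adjusted p 0.140) in modifier over wildtype, with values of -0.17, -0.20, -0.76 and -0.66, and at -0.30 in modifier over Wobbler. Its 3 probes gave -0.39, -0.67 and -0.29 in modifier over wildtype. It passed in that comparison with arrays scaled to equal spread (adjusted p 0.0082), with array weights (0.00465) and with 2 genotype coefficients for the whole loop (0.0373). Usp22, of the SAGA chromatin complex, had 0.39, 0.56, 0.24 and 0.55 in modifier over Wobbler, all positive, with a fitted ratio of 0.43 ± 0.13 (SE, n = 4; adjusted p 0.237). Usp7 and Usp9x lay between -0.03 and 0.19 in all 3 comparisons, but the 4 probes of Usp7 differed. In Wobbler over wildtype 1 of them was at -0.54, negative on all 4 arrays, and the others at 0.18 to 0.20. They ran from -0.17 to 0.42 in modifier over Wobbler and from -0.33 to 0.20 in modifier over wildtype. Usp26, an X-linked gene of testis, was at -0.28 in Wobbler over wildtype and at -0.08 and -0.12 with the modifier over wildtype and over Wobbler. Usp8, which acts on endosomes, was at 0.62 ± 0.27 (SE, n = 4) in Wobbler over wildtype, from 2.25 on replicate 2. Usp42 had values of -1.74, -1.66, 1.81 and 1.6 in modifier over Wobbler, which turned sign with the dyes. Of its 2 probes, 1 did so, at -3.461, -3.365, 3.221 and 1.693. The other did not, at -0.011, 0.052, 0.399 and 1.514.

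As a class the USPs had a median of 0.43 in Wobbler over wildtype, beside -0.01 for all features, with 22 of 31 above 0 and 9 below (29.0%, beside 50.8% of all features below and 49.2% above). At an unadjusted p under 0.05, 7 were higher and 2 lower (22.6% and 6.45%, beside 7.22% and 8.47%). This rested on replicate 2: without it 15 of 31 were above 0, the median was -0.02, and 3 were higher and 2 lower. The medians on replicates 1 to 4 were 0.13, 0.68, -0.25 and -0.05. In modifier over wildtype 16 of 31 were below 0, with a median of -0.01, and in modifier over Wobbler 11, with a median of 0.06, so the lower ratios of the core, 19S and E2 genes were not seen in the median of the USPs; the difference between the classes was not tested.

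**Figure D4:**
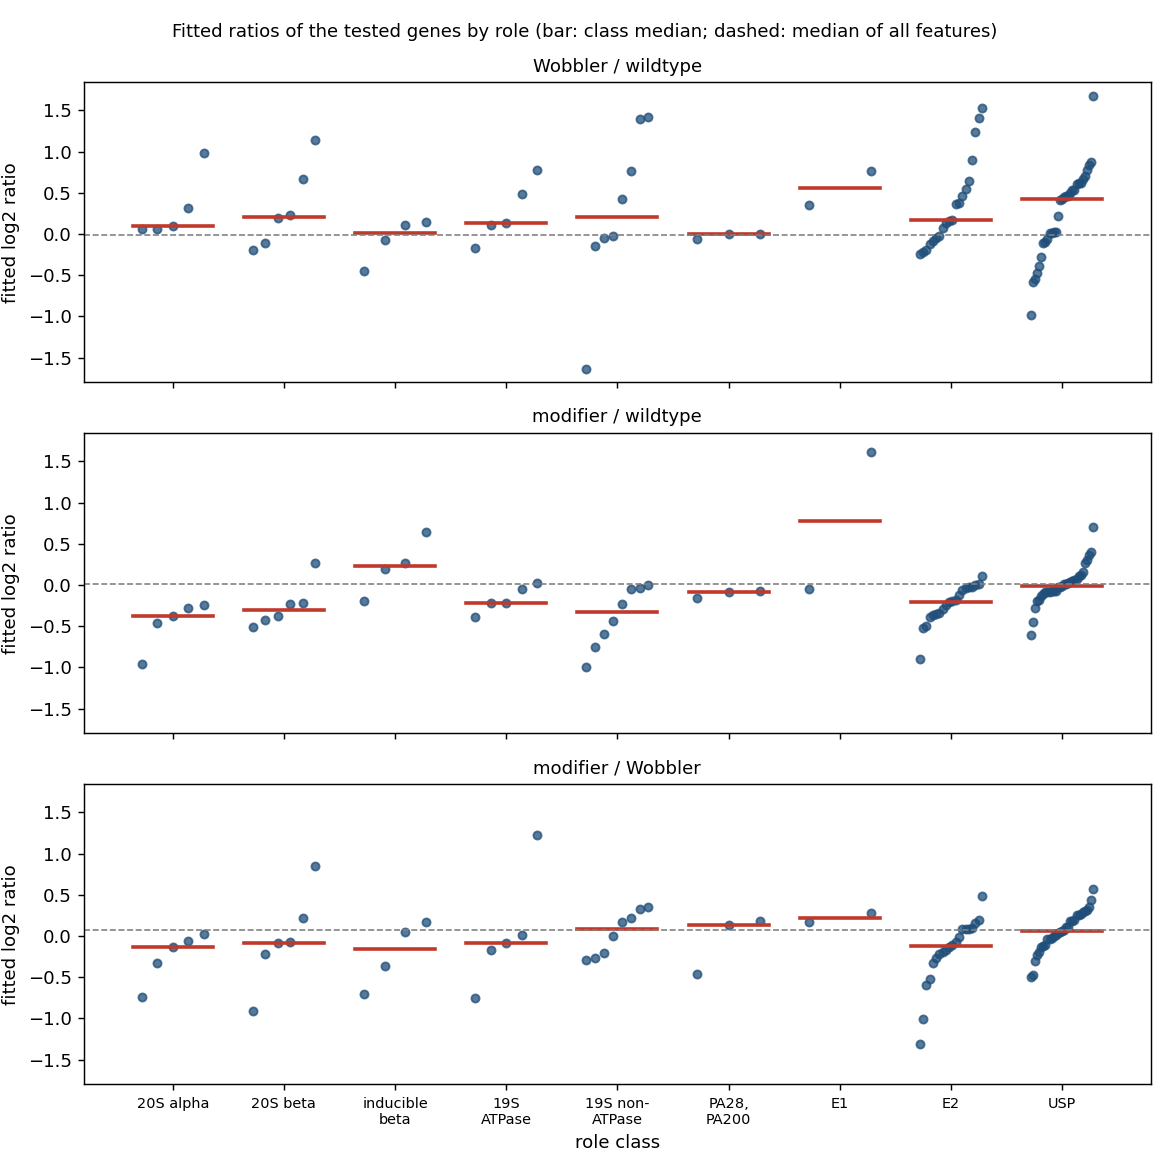
Fitted log2 ratios of the tested genes by role class (x axis) in the 3 comparisons, with the class median as a bar and the median of all features as a dashed line; the 2 genes that share only a name are left out. In modifier over wildtype the medians of the alpha, beta, 19S and E2 classes lie between -0.37 and -0.20 and that of the USPs at -0.01.

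The 2 genes taken in by name only lay on the other side of 0. Psmc3ip was at 0.32 and Psme3ip1 at 0.34 in modifier over wildtype, neither passing. The 4 probes of Psme3ip1 gave between -0.09 and 1.93, and 1 probe alone carried the ratio.

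Other genes of the pathway were taken from a list of 73, of which 51 were tested: ubiquitin genes, assembly factors, shuttles, ligases, other deubiquitinases and the factors that drive proteasome genes. None passed in any comparison in limma. At an unadjusted p under 0.05, Wobbler over wildtype gave 6 higher and 2 lower (11.8% and 3.92%, beside 7.22% and 8.47% of all features). Modifier over wildtype gave 0 and 2 (0% and 3.92%, beside 2.11% and 5.22%). Modifier over Wobbler gave 2 and 3 (3.92% and 5.88%, beside 7.03% and 4.47%). The list medians were 0.01, -0.01 and 0.13, beside -0.01, 0.01 and 0.08 for all features. Klhl10, the spermatid adaptor of a cullin ligase, had -0.74, -1.05, -0.76 and -0.83 in modifier over wildtype, negative on all 4 arrays (fitted -0.85 ± 0.24, SE, n = 4; adjusted p 0.227), and was at -0.69 in modifier over Wobbler. Otub2, a deubiquitinase, was at -0.39 and -0.25. Cul4a, a cullin with a role in meiosis, was at 0.46 ± 0.11 (SE, n = 4; adjusted p 0.125) in Wobbler over wildtype and 0.41 in modifier over Wobbler, positive on all 8 arrays of these comparisons, but at -0.08 in modifier over wildtype; its direct minus indirect difference was 0.95 ± 0.19 (SE; adjusted p 0.349). Cul5 was at 0.60 ± 0.13 (SE, n = 4; adjusted p 0.114) in modifier over Wobbler. Nfe2l1 was at 1.10 in Wobbler over wildtype, from 1.88 and 2.16 on replicates 2 and 3 and 0.21 and 0.14 on the others, and at 0.18 in modifier over wildtype.

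The loop allows each direct modifier-over-Wobbler ratio to be set against the one through wildtype. The difference, direct minus indirect, passed for 0 of the 86 genes in limma, beside 0.0272% of all features, with 6 of 86 at an unadjusted p under 0.05, beside 6.95% of all features. Its median was 0.27 over the 86 genes, beside 0.09 over all features. For Psma6 the direct ratio was -0.74 and the difference 0.32 ± 0.18 (SE). For Usp53 the difference was -0.96 ± 0.27 (SE) and for Usp1 0.93 ± 0.28 (SE), with adjusted p of 0.566 and 0.577: the ratios of these genes in Wobbler over wildtype were not mirrored by their modifier comparisons, though the difference did not pass.

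Probes of 1 gene often disagreed. Of 22 genes with 2 or more tested probes, 14 had probes of opposite sign in modifier over wildtype, 15 in modifier over Wobbler and 8 in Wobbler over wildtype. The median gap between the lowest and highest probe was 0.32, 0.27 and 0.45. Psma6, Ube2n and Usp1 had 1 probe each, so this check could not be made for them.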

How the data were processed

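The deposited values were log2 ratios per spot and array, 1 table of the authors' processed values for 12 arrays of 20355 probes; how they were background-corrected and normalized is not given in the sources used here. Of the probes, 14030 carried 1 gene symbol in the platform annotation, 5 carried several and 6320 none; probes of a symbol were averaged per array, giving 16255 features. Symbols were checked against a gene table of GRCm38.p6, which lacked the gene identifiers of 28 symbols and changed 0. Values above 14, which repeat at 1 value within an array and were taken as codes, were treated as missing. Replicates 3 and 4 of each comparison, whose dyes were exchanged, were multiplied by -1.

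Features with a value on at least 3 of 4 arrays in every comparison were fitted together in limma 3.58.1 (R 4.3.3), with 3 comparison means and a dye term, and p-values were adjusted over all 14729 features (Benjamini-Hochberg, threshold 0.05). A sample without a value was dropped from that feature's fit. The fit was tested on simulated data in which all arrays had the same spread and no dye effect. That test does not cover the unequal spreads of these arrays. Genes named were those that passed, up to 2 per role and comparison with the smallest p, and 24 listed for a known part in testis or as a defining subunit, 47 in all, of which 42 were tested; of other pathway genes, up to 4 per comparison. Genes named beyond these, for a single outlying array or to complete a ring, were picked after their values were seen. The members and lists were chosen with earlier results of these data known. Alternatives were array weights, scaling, centring, other missing-value filters, the median of probes, no dye term, a replicate block, separate fits, a loop model, the other reading of the channels and leaving out each array. The number of arrays limits the precision.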

Additional observations from a re-analysis of the deposited data

Results flagged for a closer look

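Of 124 groups of 4 arrays examined, 15 had 1 array farther from the others than Dixon's critical value for 4 values allows; chance flags about 1 in 20 groups. Replicate 2 of Wobbler over wildtype was the array apart in 6 of them. There Psma2 was at 4.35 (others -0.35 to 0.23), Psmc3 at 3.11, Uba6 at 6.51 (others -1.32 to -0.88), Ube2d1 at 5.87, Ube2n at 1.14 (others 0.03 to 0.19) and Ube2w at 3.39. On replicate 3 of that comparison Ube2a was at -0.21 (others -0.01 to 0.01).

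Replicate 3 of modifier over wildtype was apart in 3 groups, with Psma1 at -0.95 (others -0.22 to -0.15), Psmb11 at -0.57 and Ube2w at -0.85. In modifier over Wobbler, Psmb1 was at 3.57 and Psme3 at -1.49 on replicate 2, Psmc3 at -4.26 and Psme1 at 0.55 on replicate 4, and Ube2c at -4.10 on replicate 1. Why these arrays stood apart was not tested.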

How the results depend on the processing

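Counts below are of the 86 genes, in the order Wobbler over wildtype, modifier over wildtype, modifier over Wobbler where 3 are given; the cause of a change was not tested. Genes passing numbered 1, 1 and 1 as reported. Wobbler over wildtype gave 0 with array weights, scaled arrays, the channel 1 over channel 2 reading, each comparison alone, the loop model, no dye term or the replicate block. Modifier over wildtype gave 5 with array weights or scaled arrays, 2 over features on all 12 arrays or in the loop model, and 0 by the channel reading, alone or without the dye term. Modifier over Wobbler gave 2 in the loop model and 0 by the channel reading, alone, without the dye term or with the replicate block. At an unadjusted p under 0.05 the 14, 10 and 10 genes became 6, 20 with array weights, 23, 3 by the channel reading (first 2 comparisons), 4 and 4 alone (first and last), 9 in the loop model (first) and 19 with scaled arrays (modifier over wildtype). By the channel reading the medians were 0.13 (modifier over wildtype) and 0.14 (modifier over Wobbler). In modifier over wildtype 3 of 24 genes of the 20S core and 19S particle were below 0, with 0 at an unadjusted p under 0.05. Of the 20 E2 genes 5 were below 0, beside 18.97% of all features. The medians also turned sign in the loop model (0.016 in modifier over wildtype, -0.07 over Wobbler) and, over Wobbler, with centred (-0.05), scaled (-0.05) or weighted (-0.0067) arrays. The channel reading also reversed Psma6 (0.20 and 0.38 in modifier over wildtype and over Wobbler) and Usp53 (0.23 in Wobbler over wildtype).

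Leaving out each array gave 0 to 1, 1 to 2 and 0 to 1 passing genes, 9 to 24, 4 to 14 and 6 to 13 at an unadjusted p under 0.05, and medians of 0.04 to 0.22, -0.18 to -0.06 and -0.11 to 0.035. For the core and 19S genes in modifier over wildtype it gave 20 to 23 below 0 and 2 to 8 at an unadjusted p under 0.05, for the E2 genes 16 to 18 below 0, and for the USPs in Wobbler over wildtype 15 to 22 above 0. Without replicate 1 of Wobbler over wildtype, the 1 gene passing in that comparison was a USP, higher in Wobbler. It was not Usp53, which did not pass there (adjusted p 0.0989). The loop difference gave 0 passing genes throughout and has no value in the loop model or in separate fits. Of 3009 values of named genes under alternatives, 2796 kept their direction and side of the threshold, 26 lost and 12 gained the call, 3 reversed, and 172 uncalled ratios turned sign. Same-numbered arrays did not pair (r of deviations -0.0286 to 0.0653 without the dye term); with the replicate block the genes passing numbered 0, 1 and 0.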
